A study of Mus musculus with 40 samples.

Results

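The comparison described here set the midbrain against the spinal cord of control mice that received saline only. It used the 8 libraries whose titles name the normal control group, 4 from midbrain and 4 from spinal cord, out of 40 libraries in the series. The study examined pain in a Parkinson's disease model, in which MPTP, a toxin of dopamine neurons, was given to mice. The MPTP mice then received saline (MPTP-Veh) or SU-Eohyeol pharmacopuncture (SUEHP), an herbal extract injected at an acupoint, either by itself (MPTP-SU), with the CB1 antagonist SR141716A, which the labels write as SR141714A (MPTP-SU+S), or with the PPARγ inhibitor T0070907 (MPTP-SU+T). Midbrain and spinal cord were sequenced in 5 groups of 4 libraries per tissue. The control (Con) libraries came from male C57BL/6N mice, 8 weeks old when obtained, that received saline in place of MPTP. Controls were also injected with saline at the acupoint GB34. Each library is bulk poly(A) RNA of a dissected tissue, so it averages neurons, glia, vessels and whatever adjoining tissue was taken along. The labels do not say which segments of the cord were taken, whether animals were pooled, or whether equal replicate numbers in the 2 tissues mark the same mouse. They also do not state that the 4 libraries of a tissue came from separate animals, so p-values measure the spread between these libraries, part of which may be technical.

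The midbrain holds the dopamine neurons of the substantia nigra and ventral tegmental area, which project to the forebrain and degenerate in Parkinson's disease, together with the colliculi, the periaqueductal gray and the raphe. The spinal cord holds the dorsal horn, where nociceptive afferents end, the ventral horn with the cholinergic motor neurons, and thick tracts of myelinated axons. Along the body axis, Hox transcription factors are expressed in nested domains from the hindbrain to the tail, while Otx and related homeobox genes mark the brain in front of the hindbrain.

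The 8 libraries held between 14642808 and 16572206 estimated counts over 40213 gene symbols, and 15987 genes had enough counts to be tested. Tissue separated the libraries along the first principal component, which held 69.6% of the variance. Mitochondrially encoded genes took 16.03% ± 0.817 of the counts in the midbrain and 12.99% ± 0.839 in the cord (SD, n = 4 each), and the 4 midbrain shares lay above the 4 spinal cord shares (exact permutation test, two-sided, p = 0.0286, the smallest that 4 against 4 allows). Those shares are of unscaled counts. In CPM after TMM scaling, the summed level of these genes overlapped between the tissues. It was 146541 to 167818 CPM in the midbrain and 123730 to 160851 CPM in the cord, with spinal cord library 2 the highest cord library. Several libraries stood apart from their group. Spinal cord library 2 had a TMM scaling factor of 0.886, against 0.99 to 1.03 in the other 7, and a summed level of Schwann cell genes of 848 CPM, against 2140.2 to 2555 CPM in the other spinal cord libraries. In it the non-coding transcript Gm26917 alone reached 90852 CPM, against 6862 to 33755 CPM in the other 3. Midbrain library 3 had a summed level of hypothalamic hormone genes of 515 CPM, against 20.7, 30.1 and 77.6 CPM in the other midbrain libraries and 14.3 to 18.1 CPM in the spinal cord. Midbrain libraries 2 and 4 had summed choroid plexus genes of 1350.5 and 639.6 CPM, against 59.996 and 122 CPM in libraries 1 and 3. The part of these differences in the results was not tested. Without midbrain library 3 and spinal cord library 2 together, 2631 genes passed the threshold used below, against 2785 with all 8.

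**Figure D1:**
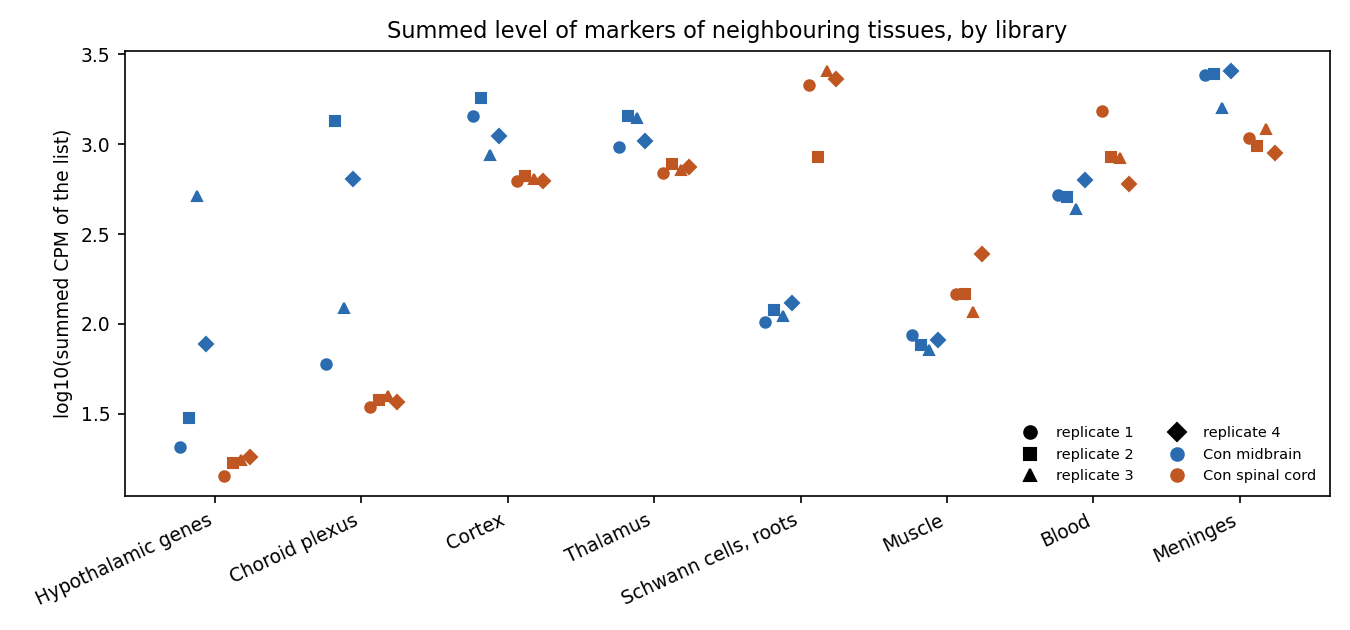
Summed level of marker genes of 8 neighbouring tissues (log10 of summed CPM, y axis) in each of the 4 Con midbrain (blue) and 4 Con spinal cord (orange) libraries, with 1 symbol per replicate number. Midbrain replicate 3 is high for hypothalamic genes (515 CPM), midbrain replicates 2 and 4 for choroid plexus genes, and spinal cord replicate 2 is low for Schwann cell genes (848 CPM).

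The labels were checked against defining genes of each tissue. For the midbrain, Th, Slc6a3, En1 and Otx2 were all higher in the libraries labelled midbrain, with no overlap. Pou4f1, a marker of the red nucleus that sensory ganglia also express, was read at 19.6, 2.13, 8.86 and 9.87 CPM in the midbrain and 13.6, 10.1, 10.7 and 10.8 CPM in the spinal cord, so the groups overlapped (log2 fold change -0.17, SE 0.42, adjusted p = 0.779). For the spinal cord, the Hox genes and the glycine transporter Slc6a5 were higher in the libraries labelled spinal cord. Mnx1, a motor neuron factor, had too few counts to test, with 0 counts in each midbrain library and 7, 6, 16 and 14 counts in the spinal cord.

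Genes were called differentially expressed (DEGs) at an adjusted p below 0.05 by edgeR's quasi-likelihood test, adjusted over all tested genes by the Benjamini-Hochberg method, together with a fold change above 1.5. This gave 2785 DEGs, or 17.4% of the tested genes. Of these, 1237 were higher in the midbrain (7.74% of tested genes) and 1548 were higher in the spinal cord (9.68%). In 6223 genes (38.9%), the 4 midbrain values and the 4 spinal cord values did not overlap, and 2552 of the 2785 DEGs were among them. Differences above 4-fold were seen in 179 genes higher in the midbrain and 237 higher in the spinal cord, and above 16-fold in 52 and 80. The median log2 fold change over all tested genes, midbrain minus spinal cord, was 0.015, and every gene list below is to be read beside that value and those shares. Where a list is said to have no member higher in a tissue, DESeq2 and limma-voom called none there either. A gene could pass the filter on low counts through 1 tissue alone, which favors a difference. When at least 10 counts were required in every library, the members higher in the midbrain numbered 14 in place of 27 for the patterning factors of midbrain and forebrain, 11 in place of 17 for dopamine neurons, 9 in place of 14 for cortex and hippocampus, 2 in place of 5 for the striatum, 2 in place of 4 for hypothalamic hormones and 1 in place of 3 for serotonergic and noradrenergic neurons. Those higher in the spinal cord numbered 2 in place of 10 for spinal transcription factors, 3 in place of 7 for dorsal horn peptides, 5 in place of 10 for Schwann cells and ganglia, 2 in place of 5 for the ependyma and 5 in place of 13 for skeletal muscle. Levels are counts per 1000000 counts of the TMM-scaled library size (CPM), and positive log2 fold changes mean higher in the midbrain.

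**Figure D2:**
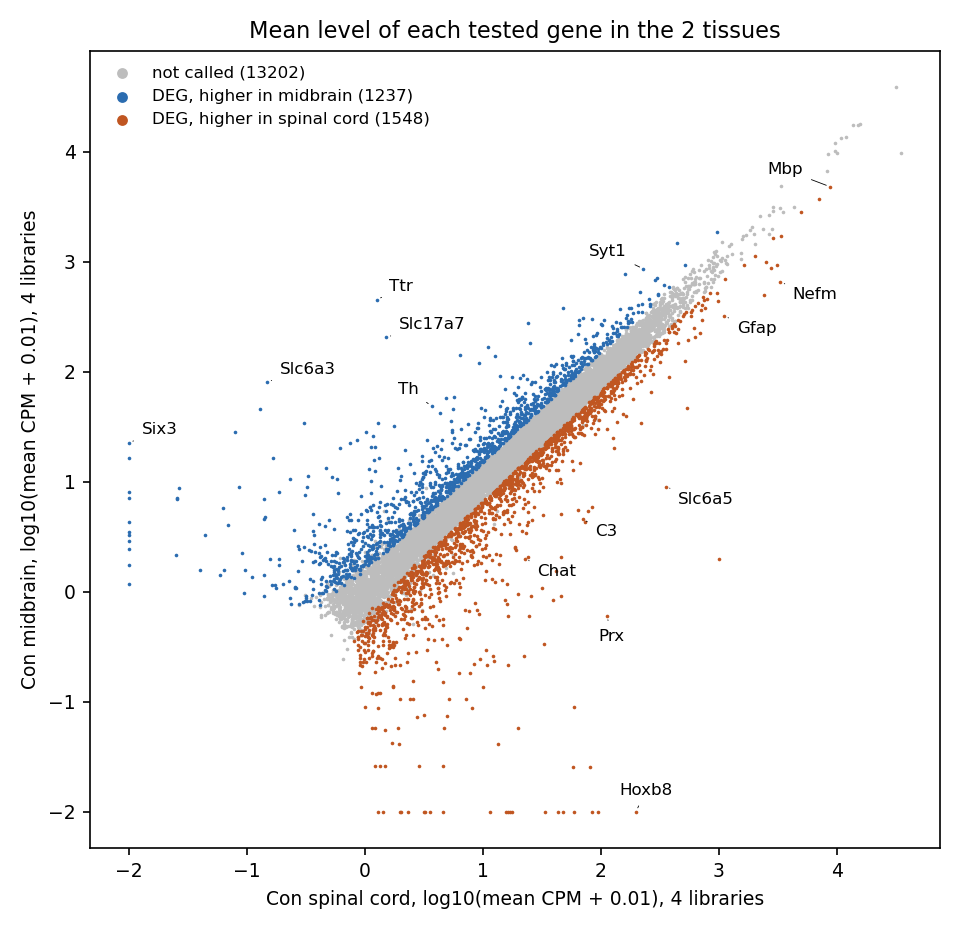
Mean level of each of the 15987 tested genes over 4 libraries in the spinal cord (x axis) and the midbrain (y axis), both as log10 of CPM plus 0.01. Blue points are the 1237 DEGs higher in the midbrain and orange points the 1548 higher in the spinal cord. Genes at the lower edge and the left edge, among them Hoxb8 and Six3, had no count in any library of a tissue.

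Hox genes were read almost only in the spinal cord. Of 39 Hox genes in the table, 33 had enough counts to be tested, and all 33 were called higher in the spinal cord without overlap, against 9.68% of all tested genes. No Hox gene had 10 counts in every library, so the 33 were tested because of their spinal cord counts, and the filter largely fixed that count. As a description, their median log2 fold change was -8.49 as fitted, and -7.94 when the 19 genes with 3 or fewer counts in all midbrain libraries were set to their counted ratio or lower bound. Hoxb8, one of the genes that specify thoracic and lumbar identity and dorsal horn sensory circuits, was read at 0 CPM in every library in the midbrain and 227, 165, 202 and 202 CPM in the spinal cord, which is at least 4232-fold higher in the spinal cord (taking 3 counts over the 4 midbrain libraries as the limit that a count of 0 allows). Hoxc10, a lumbar motor neuron gene, was read at 0 CPM in every library in the midbrain and 98.5, 91.9, 91.9 and 96.1 CPM in the spinal cord, at least 2000-fold higher. Hoxb9 was read at 0 CPM in every library in the midbrain and 85.8, 85.1, 84.2 and 84.1 CPM in the spinal cord, at least 1791-fold higher. The spinal cord values of Hoxb9 spanned less than 2 CPM. Hoxd10, another lumbar gene, was read at 0 CPM in every library in the midbrain and 61.5, 43.1, 42.4 and 45.2 CPM in the spinal cord, at least 1013-fold higher. Hoxa7 had 1 count over the 4 midbrain libraries, in library 2, and 5003 counts over the 4 spinal cord libraries, a ratio of 5184 (95% interval 930 to 204800, counting error only). The counting is not stated to use strand, so reads of a Hox gene and of an antisense transcript across it cannot be told apart.

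**Figure D3:**
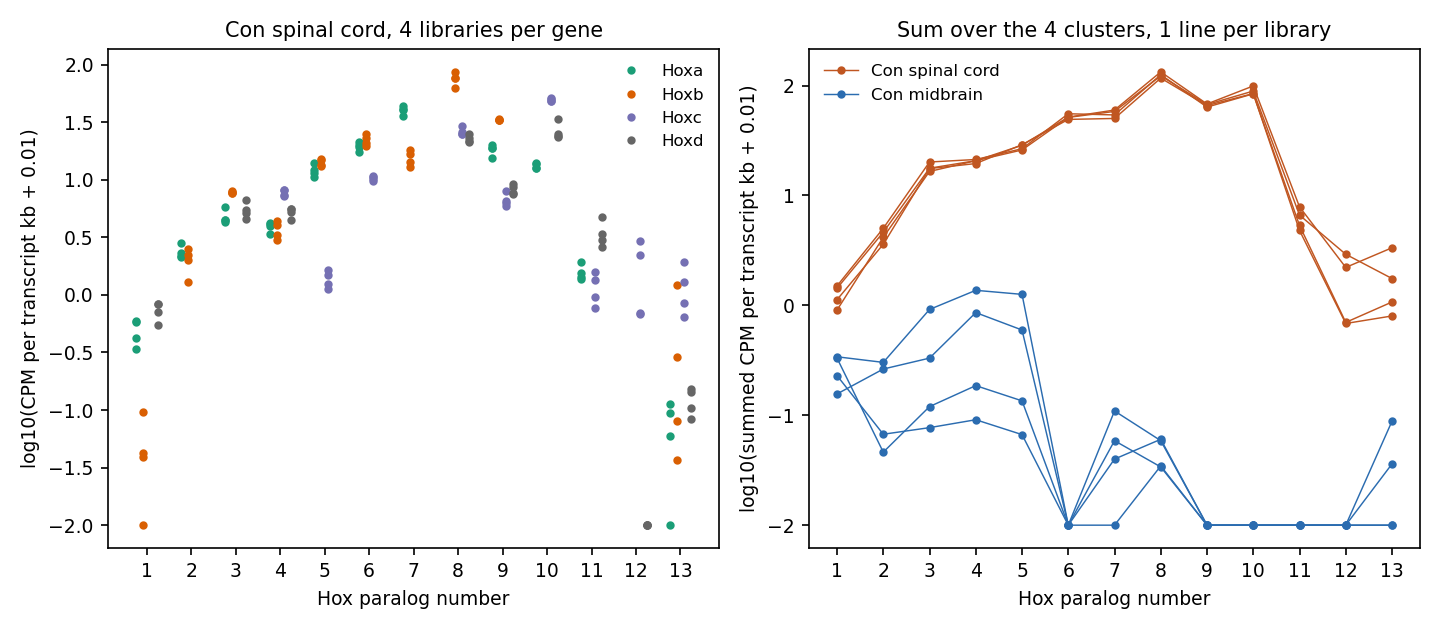
Left, level of each Hox gene in the 4 Con spinal cord libraries (log10 of CPM per transcript kilobase plus 0.01) by paralog number, colored by cluster. Right, the sum over the 4 clusters for each paralog number, with 1 line per library; the spinal cord lines (orange) climb to number 8 at a mean of 124 CPM per kilobase and drop after number 10, and the midbrain lines (blue) are at 0 for numbers 6, 9, 10, 11 and 12.

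Hox genes are numbered by their place in 4 clusters, and low numbers are expressed from the hindbrain backward, high numbers only toward the tail. Per transcript kilobase, which allows levels of different genes to be compared, the summed Hox level in the spinal cord was higher with each number up to 8, from 1.23 CPM per kilobase for number 1 to 18.0 for number 3, 27.5 for number 5, 51.8 for number 6 and 124 for number 8, which held 26.6% of the total. Number 9 followed at 66.1 and number 10 at 89.2 CPM per kilobase, and numbers 11, 12 and 13 dropped to 6.15, 1.62 and 1.73. Across the spinal cord libraries, number 1 ran from 0.897 to 1.49, number 8 from 117 to 133 and number 11 from 4.79 to 7.86 CPM per kilobase. Number 12 was read at 2.20, 0.674, 0.690 and 2.90 CPM per kilobase and number 13 at 3.33, 0.791, 1.06 and 1.74 in libraries 1 to 4, so libraries 2 and 3 lay below libraries 1 and 4 for both numbers. Number 12 rests on Hoxc12 alone, with 34, 9, 12 and 49 counts in the 4 spinal cord libraries, which was too few for the test, and Hoxd12 had no count in any library. By cluster, HoxB held 37.2% of the spinal cord total, HoxA 24.8%, HoxC 22.6% and HoxD 15.4%. The midbrain libraries held 21, 85, 31 and 162 Hox counts in all, against 12857 to 17564 in the spinal cord libraries. Of these midbrain counts, 285 fell on numbers 1 to 5 and 14 on numbers 6 to 13. Midbrain libraries 2 and 4 held most of them. Hoxb3, for example, was read at 0.0648, 0.304, 0.193 and 1.82 CPM in the midbrain and 24.4, 25.3, 24.8 and 24.6 CPM in the spinal cord (log2 fold change -5.35, SE 0.41, adjusted p = 1.33e-06), and without midbrain library 4 its log2 fold change was -6.97. Hoxb5 was read at 0, 1.34, 0.193 and 1.76 CPM in the midbrain and 42.4, 37.4, 41.4 and 36.4 CPM in the spinal cord (log2 fold change -5.55, SE 0.38, adjusted p = 5.48e-07), which became -6.21 without midbrain library 4.

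The 120 bases before the start of 6 genes are shown because they belong to members that had few or no counts in the other tissue. They come from the RefSeq promoter table for GRCm38.p6, a different build from the GRCm39 of the deposited tables, and 22 of the 39 Hox genes had an entry there. The windows are chr11:96281785-96281904 (plus strand) for Hoxb8, chr6:52218574-52218693 (minus) for Hoxa7, chr2:74691771-74691890 (plus) for Hoxd10, chr14:48667645-48667764 (minus) for Otx2, chr17:85620714-85620833 (plus) for Six3 and chr13:73536627-73536746 (plus) for Slc6a3. Each is printed 5′ to 3′ on the gene's strand, and capitals mark matches to CCAAT or TATAAA on either strand.
Hoxb8: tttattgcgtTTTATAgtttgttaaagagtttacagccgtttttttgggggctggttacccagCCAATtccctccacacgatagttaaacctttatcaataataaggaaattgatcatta
Hoxa7: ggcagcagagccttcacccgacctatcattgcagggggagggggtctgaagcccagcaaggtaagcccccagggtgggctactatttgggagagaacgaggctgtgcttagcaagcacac
Hoxd10: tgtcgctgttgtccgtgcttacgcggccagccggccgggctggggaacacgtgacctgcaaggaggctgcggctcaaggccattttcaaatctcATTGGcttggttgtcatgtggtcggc
Otx2: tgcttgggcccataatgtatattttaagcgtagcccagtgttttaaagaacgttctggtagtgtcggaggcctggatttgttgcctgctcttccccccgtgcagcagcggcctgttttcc
Six3: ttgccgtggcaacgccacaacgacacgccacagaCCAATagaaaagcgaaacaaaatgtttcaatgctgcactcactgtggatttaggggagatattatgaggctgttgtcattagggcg
Slc6a3: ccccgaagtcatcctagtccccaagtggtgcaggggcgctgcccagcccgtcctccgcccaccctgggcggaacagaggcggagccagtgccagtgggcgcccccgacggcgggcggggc
Over the 250 bases before the start, 13 of the 22 matched Hox genes (59.1%) held CCAAT on either strand, against 34.5% of all 27025 promoters in the table and 35.9% of the 12164 tested genes with an entry. TATAAA was held by 3 of the 22 (13.6%), against 12.97% of all and 6.69% of those tested genes. Of the 18 tested Hox genes with an entry, 9 held CCAAT and 2 TATAAA. In the windows printed, Hoxb8 held both motifs, Hoxd10 and Six3 held CCAAT, and the other 3 held neither. Hoxb8 had 35.0% G and C in this window and Slc6a3 75.8%.

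Transcription factors of the anterior brain showed the reverse pattern. Of 38 tested genes on a list of midbrain and forebrain patterning factors, 27 were higher in the midbrain and 2 in the cord (7.74% and 9.68% of all tested genes), and the median log2 fold change was 1.74. Otx2, which sets the border between midbrain and hindbrain and is kept in adult dopamine neurons and choroid plexus, was read at 24.4, 16.5, 12.3 and 12.9 CPM in the midbrain and 0 CPM in every library in the spinal cord, at least 336.5-fold higher in the midbrain. Six3, a forebrain factor, was read at 22.6, 16.8, 29.9 and 20.8 CPM in the midbrain and 0 CPM in every library in the spinal cord, at least 458-fold higher. Neither had a count in any spinal cord library. Tcf7l2, the Wnt effector that is abundant in thalamus and pretectum, was read at 124, 163, 219 and 171 CPM in the midbrain and 12.4, 9.80, 11.6 and 10.5 CPM in the spinal cord (log2 fold change 3.93, SE 0.16, adjusted p = 1.05e-08). Lhx9 and Lhx2 were higher by 4.77 and 4.93 on the log2 scale. En1, which keeps midbrain dopamine neurons alive, was read at 10.3, 11.6, 8.73 and 11.8 CPM in the midbrain and 3.07, 2.47, 3.61 and 2.99 CPM in the spinal cord (log2 fold change 1.79, SE 0.16, adjusted p = 3.68e-06). The zinc-finger factor Gata3, required by GABAergic and serotonergic neurons of the brainstem, was read at 29.6, 12.8, 18.4 and 21.9 CPM in the midbrain and 1.60, 1.39, 0.770 and 0.672 CPM in the spinal cord (log2 fold change 4.24, SE 0.31, adjusted p = 9.6e-07), and Foxp2 differed by 1.76 on the log2 scale. The 2 members that were higher in the spinal cord were Lmx1b, which both dopamine neurons and dorsal horn neurons use, at 3.24, 8.09, 5.97 and 7.79 CPM in the midbrain and 24.7, 20.7, 22.5 and 23.4 CPM in the spinal cord (log2 fold change -1.86, SE 0.20, adjusted p = 2.11e-05), and Nkx6-1, a ventral progenitor and motor neuron factor (log2 fold change -1.95).

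The factors that pattern spinal interneurons split between the tissues. Of 27 tested, 10 were higher in the spinal cord and 9 in the midbrain, and the median was 0.02. Those higher in the spinal cord were led by dorsal horn factors. Lbx1, required for dorsal horn association neurons, was read at 0.777, 0.0608, 0 and 0.0628 CPM in the midbrain and 14.8, 9.65, 12.9 and 12.7 CPM in the spinal cord (log2 fold change -5.77, SE 0.47, adjusted p = 2.43e-06); without midbrain library 1, which held most of its midbrain counts, the log2 fold change was -7.98. Pax2, which gives these neurons an inhibitory fate, was read at 2.14, 0.851, 0 and 1.32 CPM in the midbrain and 35.9, 27.5, 33.3 and 31.6 CPM in the spinal cord (log2 fold change -4.89, SE 0.36, adjusted p = 1.06e-06). Drgx, needed for the entry of nociceptive afferents into the dorsal horn, was read at 1.43, 0.669, 0.642 and 1.01 CPM in the midbrain and 23.1, 20.7, 19.3 and 16.4 CPM in the spinal cord (log2 fold change -4.40, SE 0.21, adjusted p = 2.83e-08). Pax8 and Mafa, of inhibitory and deep dorsal horn neurons, differed by -3.51 and -3.73 on the log2 scale. In the other direction Shox2, a factor of spinal rhythm-generating neurons that thalamic and tectal neurons also express, was read at 44.3, 40.4, 48.1 and 35.2 CPM in the midbrain and 3.87, 4.32, 3.38 and 5.74 CPM in the spinal cord (log2 fold change 3.27, SE 0.15, adjusted p = 2.54e-08).

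Genes of dopamine neurons were higher in the midbrain. Of 25 tested, 17 were higher there and 3 in the spinal cord, with a median log2 fold change of 1.32. Slc6a3, the dopamine transporter, was read at 45.2, 107, 70.6 and 100.5 CPM in the midbrain and 0.0668, 0.309, 0.119 and 0.0611 CPM in the spinal cord (log2 fold change 9.18, SE 0.44, adjusted p = 3.43e-08). Without spinal cord library 2, the highest of the cord libraries for this gene, the log2 fold change was 9.79. Th, tyrosine hydroxylase, the rate-limiting enzyme of dopamine synthesis, was read at 26.8, 59.9, 49.03 and 58.7 CPM in the midbrain and 3.87, 3.63, 3.32 and 3.85 CPM in the spinal cord (log2 fold change 3.73, SE 0.24, adjusted p = 3.64e-07). Midbrain library 1 was the lowest of the 4 for both genes, and the spinal cord libraries lay within 1 CPM of each other for Th. In bulk tissue, fewer cells of a type and less RNA per cell cannot be told apart. The vesicular monoamine transporter Slc18a2 was read at 28.6, 57.6, 43.5 and 53.8 CPM in the midbrain and 0, 0.232, 0.0593 and 0.183 CPM in the spinal cord (log2 fold change 8.55, SE 0.39, adjusted p = 2.38e-08), and the nicotinic receptor subunits Chrna6 and Chrnb3, which dopamine terminals carry, differed by 5.08 and 4.83. Ddc, the enzyme that turns L-DOPA into dopamine and also serves serotonin neurons, was read at 33.04, 52.6, 47.7 and 53.8 CPM in the midbrain and 11.02, 9.73, 9.01 and 9.17 CPM in the spinal cord (log2 fold change 2.27, SE 0.15, adjusted p = 3.7e-07). The dopamine autoreceptor Drd2 was higher in the midbrain by 0.87. Aldh1a1, which marks a ventral set of dopamine neurons and is also found in glia and endothelium, stayed under the fold threshold at 228 ± 17.998 CPM in the midbrain and 183 ± 11.5 CPM in the spinal cord (log2 fold change 0.31, SE 0.072, adjusted p = 0.0043). Sncg, the synuclein of thick sensory and motor axons, was on this list but higher in the spinal cord, at 29.4, 23.7, 30.6 and 38.7 CPM in the midbrain and 92.1, 67.2, 83.3 and 86.96 CPM in the spinal cord (log2 fold change -1.43, SE 0.14, adjusted p = 7.29e-06).

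Serotonin and noradrenaline genes were mostly too low to test. Of 13 listed, 6 were tested, and 3 of these were higher in the midbrain and none in the spinal cord (1 at an unadjusted p below 0.05). Tph2, the serotonin-synthesizing enzyme of the raphe, was read at 21.3, 10.2, 0.513 and 10.2 CPM in the midbrain and 0.735, 0.772, 0.533 and 0.244 CPM in the spinal cord (log2 fold change 4.21, SE 0.81, adjusted p = 0.00136), so midbrain library 3 lay among the cord libraries and the other 3 above them. Without midbrain library 1 the value was 3.62, and limma-voom did not call Tph2 (adjusted p = 0.12). Slc6a4, the serotonin transporter, was untested and followed the same libraries, with 145, 57, 1 and 77 counts in the midbrain and 5, 0, 0 and 0 in the spinal cord. Midbrain library 3 thus held almost no raphe signal for either gene.

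Cholinergic and motor neuron genes were higher in the spinal cord. Of 27 tested, 17 were higher there and 4 in the midbrain, and the median log2 fold change was -0.95. Slc18a3, the vesicular acetylcholine transporter, was read at 3.95, 0.122, 0.642 and 1.38 CPM in the midbrain and 44.2, 36.7, 46.9 and 40.3 CPM in the spinal cord (log2 fold change -4.80, SE 0.41, adjusted p = 3.24e-06). Chat, which makes acetylcholine, was read at 4.21, 0.243, 1.16 and 2.26 CPM in the midbrain and 19.2, 24.2, 25.2 and 22.1 CPM in the spinal cord (log2 fold change -3.53, SE 0.40, adjusted p = 2.68e-05). Slc5a7, which takes up choline, was read at 11.3, 1.28, 3.72 and 5.22 CPM in the midbrain and 60.9, 94.1, 79.4 and 78.7 CPM in the spinal cord (log2 fold change -3.87, SE 0.37, adjusted p = 8.49e-06). In all 3, midbrain library 1 was the highest of the midbrain libraries and library 2 the lowest, and without library 1 the log2 fold changes were -5.87, -4.21 and -4.52. Ache, which breaks acetylcholine down and is expressed by many other neurons, did not pass the test (log2 fold change -0.11, SE 0.095, adjusted p = 0.382). Markers of the motor neuron pools followed. Prph, the intermediate filament of motor and sensory neurons, was read at 4.47, 4.92, 6.22 and 6.41 CPM in the midbrain and 66.7, 54.1, 64.4 and 69.2 CPM in the spinal cord (log2 fold change -3.53, SE 0.12, adjusted p = 2.69e-09). Chodl, of fast motor neurons, was read at 1.36, 1.34, 3.40 and 2.14 CPM in the midbrain and 43.9, 51.4, 43.7 and 45.96 CPM in the spinal cord (log2 fold change -4.49, SE 0.20, adjusted p = 1.79e-08). Ahnak2 differed by -3.85, and the CGRP genes Calca and Calcb by -2.55 and -3.52 on the log2 scale. Uts2, the urotensin peptide of motor neurons, had no midbrain count and was at least 98.4-fold higher in the cord, at 0 CPM in every library in the midbrain and 4.08, 3.40, 5.81 and 5.01 CPM in the spinal cord. The 4 members higher in the midbrain were Vipr1, Vipr2, Cpne4 and Gfra2, which many neurons outside the motor nuclei express.

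**Figure D4:**
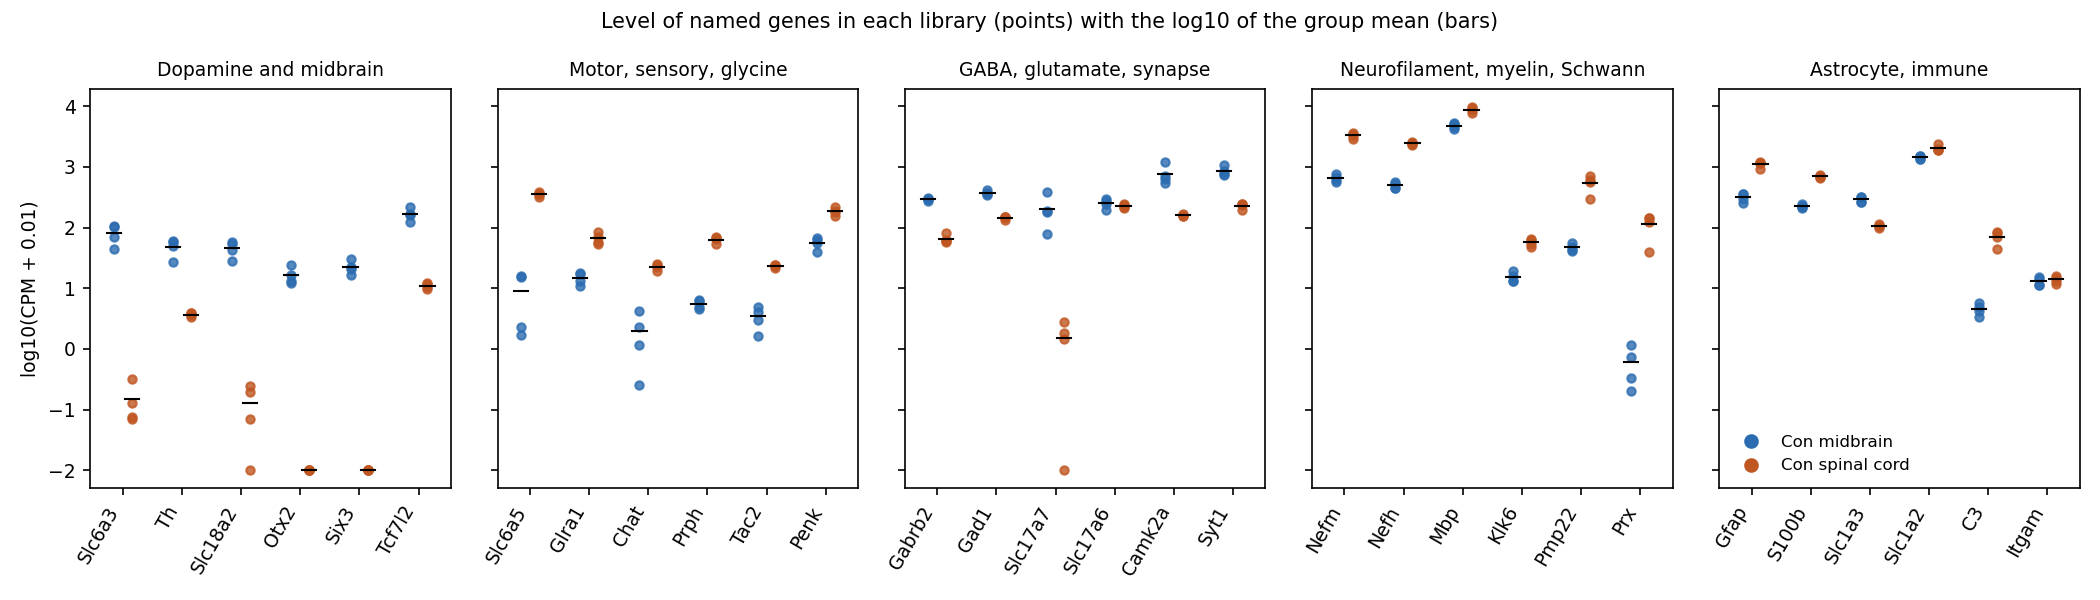
Level of 30 named genes in each library (points, log10 of CPM plus 0.01), with bars at the log10 of the group mean, for 4 Con midbrain (blue) and 4 Con spinal cord (orange) libraries. The groups do not overlap for 28 of them, against 38.9% of all tested genes, and overlap for Slc17a6 and Itgam. The genes drawn were picked from named genes, many of them named for not overlapping or for small p-values. The count is therefore no result about them.

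Inhibitory transmission differed by transmitter. Slc6a5, the neuronal glycine transporter that defines glycinergic neurons, was read at 15.6, 2.31, 1.67 and 16.2 CPM in the midbrain and 319, 389.7, 356 and 356 CPM in the spinal cord (log2 fold change -5.32, SE 0.50, adjusted p = 7.29e-06), with midbrain libraries 1 and 4 near 16 CPM and libraries 2 and 3 near 2 CPM. Glra1, the adult glycine receptor subunit, was read at 17.04, 10.8, 13.4 and 17.7 CPM in the midbrain and 85.6, 58.8, 69.2 and 53.6 CPM in the spinal cord (log2 fold change -2.18, SE 0.17, adjusted p = 1.69e-06), and Slc6a9, the mainly glial glycine transporter, was also higher in the cord (log2 fold change -0.75). Gad1 and Gad2, the enzymes that make GABA, were higher in the midbrain. Gad1 was read at 418, 339, 370.3 and 358 CPM in the midbrain and 134, 151, 150.05 and 150.4 CPM in the spinal cord (log2 fold change 1.34, SE 0.076, adjusted p = 1.27e-07) and Gad2 at 263 ± 38.7 CPM in the midbrain and 124 ± 9.04 CPM in the spinal cord (log2 fold change 1.09, SE 0.10, adjusted p = 5.64e-06). Over the whole list of 17 glycine and GABA transmission genes, 4 were higher in each tissue and the median was -0.08. Among 17 tested GABA receptor subunits, 7 were higher in the midbrain and 1 in the cord, with a median of 0.60. Most were GABA-A subunits, but the GABA-B receptor genes Gabbr1 and Gabbr2 were also counted, and Gabbr2 was 1 of the 7 (log2 fold change 0.74). Gabrb2, a beta subunit of many adult synaptic receptors, was read at 295, 296, 312 and 271 CPM in the midbrain and 63.7, 80.7, 60.7 and 57.7 CPM in the spinal cord (log2 fold change 2.16, SE 0.10, adjusted p = 2.54e-08). Gabrd, a subunit of extrasynaptic receptors in thalamus and cerebellum, differed by 4.37. The member higher in the cord was Gabra2, which mediates much of the GABA-A signal in the dorsal horn, at 112, 187, 139 and 148 CPM in the midbrain and 287, 251, 227 and 207 CPM in the spinal cord (log2 fold change -0.73, SE 0.14, adjusted p = 0.00133).

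Excitatory transmission genes were more often higher in the midbrain. Of 33 glutamate receptors and transporters, 10 were higher in the midbrain and 2 in the cord, with a median of 0.25, and the 2 became 1 without midbrain library 2 or spinal cord library 2. Slc17a7, the vesicular glutamate transporter of cortex, hippocampus and cerebellar granule cells, was read at 178, 383, 77.1 and 186 CPM in the midbrain and 0, 1.85, 2.73 and 1.47 CPM in the spinal cord (log2 fold change 7.07, SE 0.59, adjusted p = 2.94e-06). Slc17a6, the transporter used by most excitatory neurons of midbrain and cord, overlapped between tissues, at 277, 193, 301 and 243 CPM in the midbrain and 215, 244, 218 and 233 CPM in the spinal cord (log2 fold change 0.16, SE 0.11, adjusted p = 0.299). The presynaptic receptor Grm2 differed by 3.15, and Grin3b, an NMDA receptor subunit typical of motor neurons, was higher in the cord, at 1.23, 0.426, 1.28 and 1.13 CPM in the midbrain and 4.94, 4.48, 5.16 and 4.58 CPM in the spinal cord (log2 fold change -2.23, SE 0.26, adjusted p = 4e-05). Among 28 general neuronal and synaptic genes, 10 were higher in the midbrain and none in the spinal cord (5 at an unadjusted p below 0.05), with a median of 0.44. Syt1, the calcium sensor of fast release, was read at 870.01, 1061, 767 and 745 CPM in the midbrain and 196, 248, 234 and 242 CPM in the spinal cord (log2 fold change 1.90, SE 0.12, adjusted p = 2.22e-07). Camk2a, the kinase of excitatory forebrain synapses, was read at 723, 1223, 543 and 628 CPM in the midbrain and 163, 155, 165 and 156 CPM in the spinal cord (log2 fold change 2.29, SE 0.20, adjusted p = 4.6e-06), and Nrgn, a calmodulin-binding protein of the same neurons, at 276 ± 94.4 CPM in the midbrain and 24.1 ± 1.97 CPM in the spinal cord (log2 fold change 3.52, SE 0.22, adjusted p = 3.05e-07). Cplx2 differed by 1.24. Snap25, a core fusion protein, and Rbfox3, which encodes the nuclear protein NeuN, stayed under the fold threshold. Snap25 was read at 2839 ± 244 CPM in the midbrain and 3519.7 ± 146 CPM in the spinal cord (log2 fold change -0.31, SE 0.071, adjusted p = 0.00415), without overlap. Rbfox3 was read at 171, 148, 138 and 136 CPM in the midbrain and 194, 161, 175 and 178 CPM in the spinal cord (log2 fold change -0.26, SE 0.085, adjusted p = 0.0293).

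Neuropeptides and receptors of the dorsal horn split in both directions. Of 33 tested, 7 were higher in the spinal cord and 9 in the midbrain, and the median was 0.15. Penk, the enkephalin precursor, was read at 62.5, 39.6, 68.3 and 56.7 CPM in the midbrain and 183, 158, 187 and 217 CPM in the spinal cord (log2 fold change -1.72, SE 0.15, adjusted p = 3.34e-06). Tac2, the neurokinin B precursor of excitatory dorsal horn neurons, was read at 1.62, 3.04, 4.94 and 4.09 CPM in the midbrain and 22.98, 24.2, 24.4 and 21.4 CPM in the spinal cord (log2 fold change -2.76, SE 0.22, adjusted p = 1.8e-06). Nmu and Npff, further peptides of the cord, were low throughout and differed by -4.63 and -2.33. Tacr1, the substance P receptor of projection neurons, was read at 15.7, 7.60, 13.4 and 14.96 CPM in the midbrain and 24.9, 21.999, 21.7 and 21.7 CPM in the spinal cord (log2 fold change -0.81, SE 0.17, adjusted p = 0.00294). Sst, somatostatin, overlapped between the tissues (log2 fold change -0.19, SE 0.090, adjusted p = 0.114). Of 8 opioid genes, 3 were higher in the spinal cord and 1, Pomc, in the midbrain, with a median of -0.26. Pomc lost its call without midbrain library 3 and without each spinal cord library in turn. The delta receptor Oprd1 was read at 6.22, 4.62, 4.49 and 5.22 CPM in the midbrain and 10.02, 11.1, 11.1 and 12.7 CPM in the spinal cord (log2 fold change -1.13, SE 0.14, adjusted p = 4.44e-05).

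The receptors on which the study's compounds act were also read. Cnr1, which encodes the CB1 receptor, was read at 63.2, 82.7, 57.8 and 63.98 CPM in the midbrain and 33.7, 44.5, 41.5 and 37.8 CPM in the spinal cord (log2 fold change 0.77, SE 0.12, adjusted p = 0.000252), with every midbrain library above every spinal cord library. Its interacting protein Cnrip1 was higher in the midbrain as well (log2 fold change 0.73). Pparg, which encodes PPARγ, was low in both tissues, at 1.94, 1.70, 0.770 and 0.943 CPM in the midbrain and 1.34, 1.93, 1.07 and 1.34 CPM in the spinal cord (log2 fold change -0.07, SE 0.33, adjusted p = 0.885), and the groups overlapped. Of 23 tested endocannabinoid and PPAR genes, 4 were higher in the midbrain and none in the spinal cord (4 at an unadjusted p below 0.05), with a median of 0.23. Among 22 tested monoamine receptors, 7 were higher in the midbrain and 3 in the cord, with a median of 0.13. Of the latter, Adra1a, the alpha-1A adrenoceptor, was read at 16.5, 11.004, 16.6 and 12.1 CPM in the midbrain and 30.1, 37.7, 37.5 and 37.3 CPM in the spinal cord (log2 fold change -1.35, SE 0.13, adjusted p = 1.08e-05), and Htr2a, the serotonin 2A receptor, at 1.49, 1.46, 1.80 and 2.64 CPM in the midbrain and 3.54, 5.87, 6.16 and 6.29 CPM in the spinal cord (log2 fold change -1.56, SE 0.25, adjusted p = 0.000344). In both genes spinal cord library 1 was the lowest of the cord libraries.

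The neurofilament subunits, which fill large-caliber axons, were higher in the spinal cord. Of 20 neurofilament and axonal cytoskeleton genes, 7 were higher there and 2 in the midbrain (1 without midbrain library 2 or 4 or spinal cord library 2), with a median of -0.24. The other 11 were not called. Nefm was read at 771, 555, 601 and 673 CPM in the midbrain and 3486, 2885, 3287 and 3679.7 CPM in the spinal cord (log2 fold change -2.36, SE 0.11, adjusted p = 2.54e-08) and Nefh at 569, 444, 455 and 534 CPM in the midbrain and 2399.7, 2309.7, 2473 and 2603 CPM in the spinal cord (log2 fold change -2.29, SE 0.088, adjusted p = 6.31e-09). Nefl differed by -1.68 and the microtubule-associated Map1b by -0.86 on the log2 scale. Gap43, the growth cone protein kept by plastic axons, was higher in the midbrain, at 209, 184, 279.5 and 226 CPM in the midbrain and 98.7, 91.2, 83.3 and 95.6 CPM in the spinal cord (log2 fold change 1.29, SE 0.11, adjusted p = 3.97e-06). Among 10 tested sodium channel subunits, 4 were higher in the midbrain and 2 in the cord (1 without midbrain library 3), with a median of 0.45. Scn4b, a beta subunit of large myelinated axons and fast-firing neurons, was read at 101, 78.5, 89.2 and 113 CPM in the midbrain and 291, 273, 280.3 and 276 CPM in the spinal cord (log2 fold change -1.55, SE 0.098, adjusted p = 3e-07), while the alpha subunit Scn2a and the beta subunit Scn3b were higher in the midbrain, by 0.92 and 1.51.

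Myelin genes were among the most abundant transcripts that differed. Of 40 oligodendrocyte myelin genes, 17 were higher in the spinal cord and none in the midbrain, also at an unadjusted p below 0.05, and the median was -0.50. Mbp, myelin basic protein, was read at 4255, 4636, 5044 and 5262 CPM in the midbrain and 7701, 8581, 9695 and 9322 CPM in the spinal cord (log2 fold change -0.88, SE 0.088, adjusted p = 1.17e-05), with no overlap between the groups. Klk6, a protease of mature oligodendrocytes, showed the largest difference of the list, at 13.02, 15.7, 12.96 and 19.3 CPM in the midbrain and 48.2, 62.8, 65.2 and 53.8 CPM in the spinal cord (log2 fold change -1.91, SE 0.14, adjusted p = 7.4e-07). Ugt8a, which makes the myelin lipid galactosylceramide, differed by -1.06, and Mobp stayed just under the fold threshold (log2 fold change -0.49). On adjusted p alone, 30 of the 40 passed in that direction. The cholesterol synthesis genes, whose product is a main lipid of myelin, had 8 of 23 higher in the spinal cord and none in the midbrain, again also at an unadjusted p below 0.05, with a median of -0.41, and 19 of 23 on adjusted p alone. The synthesis enzymes Hmgcs1 and Cyp51 differed by -0.88 and -0.83. Of 15 genes of oligodendrocyte precursors and early oligodendrocytes, 2 were higher in the cord and 1 in the midbrain, with a median of 0.09, and 2 were higher in the midbrain without midbrain library 3 or spinal cord library 3. The member higher in the midbrain was Cspg5, a proteoglycan that neurons and astrocytes also make, at 145, 136, 135 and 122 CPM in the midbrain and 68.9, 62.3, 70.8 and 67.8 CPM in the spinal cord (log2 fold change 0.99, SE 0.070, adjusted p = 7.7e-07). The ferritin heavy chain Fth1, an iron store of oligodendrocytes and other cells, was read at 2659.7, 2937, 2841 and 2838 CPM in the midbrain and 4874, 4724, 5566 and 4768 CPM in the spinal cord (log2 fold change -0.82, SE 0.069, adjusted p = 2.94e-06).

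Genes of Schwann cells and sensory ganglia were far higher in the spinal cord. Of 15 tested, 10 were higher there and 1 in the midbrain, with a median of -3.21. Prx, periaxin of Schwann cells, was read at 0.194, 0.730, 0.321 and 1.13 CPM in the midbrain and 124, 39.5, 144 and 144 CPM in the spinal cord (log2 fold change -7.54, SE 0.52, adjusted p = 5.84e-07), and Pmp22 at 42.6, 48.8, 40.8 and 56.5 CPM in the midbrain and 571, 292, 697 and 604 CPM in the spinal cord (log2 fold change -3.52, SE 0.23, adjusted p = 3.84e-07). Egr2, the Schwann cell myelination factor, was read at 0.842, 0.547, 0.834 and 0.440 CPM in the midbrain and 8.42, 2.16, 9.19 and 8.62 CPM in the spinal cord (log2 fold change -3.41, SE 0.43, adjusted p = 6.42e-05). Spinal cord library 2 was the lowest of the 4 cord libraries in each of these genes. The defining channels of nociceptors were at or near 0 in both tissues, with 0 to 2 counts of Scn10a in every library. The summed level of the list was 103 to 130.4 CPM in the midbrain, and the part of nerve root tissue in other differences was not tested. The member higher in the midbrain, Avil, kept its call only without spinal cord library 4 among the fits that left out 1 library.

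Astrocyte genes were higher in the spinal cord in part. Of 30 tested, 9 were higher there and 1 in the midbrain (2 without midbrain library 1 or 3), and the median was -0.30. Gfap, the intermediate filament of fibrous astrocytes, was read at 301, 355, 258 and 364 CPM in the midbrain and 935, 1193, 1158 and 1164 CPM in the spinal cord (log2 fold change -1.80, SE 0.11, adjusted p = 3.05e-07), and spinal cord library 1 was the lowest of the cord libraries. S100b was read at 221, 212, 228 and 246 CPM in the midbrain and 688, 738, 722 and 652 CPM in the spinal cord (log2 fold change -1.63, SE 0.068, adjusted p = 1.2e-08), and the water channel Aqp4 at 232, 259, 257 and 251 CPM in the midbrain and 445, 774, 631 and 636 CPM in the spinal cord (log2 fold change -1.32, SE 0.13, adjusted p = 1.06e-05). Nes, nestin, which Schwann cells and vessels also express, differed by -2.10. The glutamate transporters of astrocytes went apart. Slc1a3 (GLAST) was higher in the midbrain, at 268, 323, 316 and 268 CPM in the midbrain and 100.1, 114, 107 and 108 CPM in the spinal cord (log2 fold change 1.46, SE 0.080, adjusted p = 9.63e-08), while Slc1a2 (GLT-1) was read at 1515, 1532, 1379.8 and 1375 CPM in the midbrain and 1882, 2390.01, 1987 and 1937 CPM in the spinal cord and stayed under the fold threshold (log2 fold change -0.50, SE 0.082, adjusted p = 0.000441). Glul, glutamine synthetase, did not pass the test (log2 fold change 0.17, SE 0.065, adjusted p = 0.0534).

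Microglial genes hardly separated the tissues at the fold threshold. Of 23 tested, none was higher in the midbrain (7 at an unadjusted p below 0.05) and 1 in the spinal cord, with a median of 0.25. That 1 was Sall1 (log2 fold change -0.95), a factor of microglial identity that other neural cells can express. Of the 23 log2 fold changes, 19 were positive. On adjusted p alone, 6 members were higher in the midbrain, against Sall1 and Lgmn in the spinal cord. Itgam, which encodes CD11b, was read at 11.5, 14.04, 15.3 and 11.5 CPM in the midbrain and 11.8, 14.7, 16.1 and 13.1 CPM in the spinal cord (log2 fold change -0.09, SE 0.13, adjusted p = 0.589), and Aif1, which encodes IBA1, at 3.11, 5.59, 4.75 and 4.40 CPM in the midbrain and 4.48, 4.09, 3.02 and 3.61 CPM in the spinal cord (log2 fold change 0.24, SE 0.20, adjusted p = 0.377), and the groups overlapped in both. Antigen presentation and complement genes had 6 of 20 higher in the spinal cord and none in the midbrain (1 at an unadjusted p below 0.05), with a median of -0.42. C3, the central complement component, was read at 4.86, 4.26, 3.34 and 5.72 CPM in the midbrain and 43.96, 82.4, 83.8 and 70.6 CPM in the spinal cord (log2 fold change -3.95, SE 0.22, adjusted p = 1.02e-07). C4b was read at 26.2, 29.9, 24.3 and 35.01 CPM in the midbrain and 46.4, 51.9, 60.1 and 50.8 CPM in the spinal cord (log2 fold change -0.86, SE 0.11, adjusted p = 9.94e-05), and the complement regulator Cd59a differed by -0.81. Of 24 interferon-stimulated genes, 1, Parp14, was higher in the spinal cord and none in the midbrain (1 at an unadjusted p below 0.05), with a median of -0.04.

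Neurotrophic factors divided between the tissues, with 6 of 18 tested higher in the midbrain, 5 higher in the spinal cord and a median of 0.22. Bdnf, brain-derived neurotrophic factor, was read at 18.7, 22.9, 15.9 and 21.3 CPM in the midbrain and 7.42, 8.80, 7.94 and 10.1 CPM in the spinal cord (log2 fold change 1.20, SE 0.13, adjusted p = 2.6e-05). Gfra1, the GDNF co-receptor, was read at 49.7, 54.8, 45.8 and 47.01 CPM in the midbrain and 89.7, 93.5, 98.3 and 98.8 CPM in the spinal cord (log2 fold change -0.95, SE 0.072, adjusted p = 1.38e-06). Cntf, a factor made by Schwann cells and astrocytes, was read at 0.842, 1.16, 1.09 and 1.95 CPM in the midbrain and 11.2, 6.18, 12.9 and 11.0004 CPM in the spinal cord (log2 fold change -3.03, SE 0.28, adjusted p = 5.6e-06), again lowest in the cord in library 2. Of 20 immediate early genes, 5 were higher in the midbrain and 1, the Schwann cell gene Egr2, in the spinal cord, with a median of 0.39, and 8 were higher in the midbrain without midbrain library 4. Fos, the marker of recent neuronal activity, was read at 17.6, 10.8, 20.02 and 17.1 CPM in the midbrain and 11.8, 12.6, 19.6 and 14.4 CPM in the spinal cord (log2 fold change 0.16, SE 0.19, adjusted p = 0.54), and Mapk14, which encodes p38, at 53.3 ± 3.88 CPM in the midbrain and 47.9 ± 2.32 CPM in the spinal cord (log2 fold change 0.15, SE 0.072, adjusted p = 0.106). Both overlapped between the tissues.

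Markers of tissues that adjoin the dissections also differed, and their part in the results above was not tested. Of 20 tested cortical and hippocampal genes, 14 were higher in the midbrain and 1, Lamp5, which dorsal horn neurons express too (log2 fold change -2.69), in the spinal cord, with a median of 2.05. The list summed to 872 to 1817 CPM in the midbrain and 621 to 662 CPM in the cord. Emx2, a factor of the dorsal telencephalon, had no spinal count and was at least 164-fold higher in the midbrain, at 9.46, 9.85, 4.68 and 8.17 CPM in the midbrain and 0 CPM in every library in the spinal cord. For the thalamus and habenula 10 of 17 were higher in the midbrain and none in the cord (median 0.73), for the cerebellum 8 of 18 and none (0.59, with 1 in the cord at an unadjusted p below 0.05), and for the striatum 5 of 12 and 1 (0.27). Of the hypothalamic hormone genes 4 of 6 tested were higher in the midbrain (median 1.59), which became 1 with limma-voom, 1 without midbrain library 3 and spinal cord library 2 together, and 13 of the list with no filter on low counts, and the 1 tested pituitary gene, Pomc, was among them. Choroid plexus genes had 5 of 12 higher in the midbrain (median 1.06), which became 8 without midbrain library 1 or with no filter on low counts and 2 with limma-voom. Ttr, transthyretin of the choroid plexus, was read at 3.30, 1193, 67.3 and 538 CPM in the midbrain and 0.802, 0.772, 1.13 and 2.32 CPM in the spinal cord (log2 fold change 8.44, SE 1.51, adjusted p = 0.000827), which became 7.29 without midbrain library 2, and limma-voom did not call it (adjusted p = 0.234).

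Of 29 leptomeningeal and collagen genes, 15 were higher in the midbrain and 5 in the cord, with a median of 0.81. Ptgds, the prostaglandin D synthase of arachnoid cells and oligodendrocytes, was read at 1698, 1509, 1027 and 1679 CPM in the midbrain and 529.8, 454, 499 and 295 CPM in the spinal cord (log2 fold change 1.73, SE 0.19, adjusted p = 1.87e-05). Igf2, a growth factor of the leptomeninges, was read at 174, 263, 142 and 217 CPM in the midbrain and 58.5, 82.5, 95.8 and 58.4 CPM in the spinal cord (log2 fold change 1.43, SE 0.20, adjusted p = 0.000124), and the organic anion transporter Slc22a6 differed by 3.37. The 5 members higher in the cord were the fibroblast matrix genes Col1a1, Col1a2, Col3a1, Dcn and Ogn, of which Ogn was read at 29.6, 39.1, 23.8 and 38.3 CPM in the midbrain and 70.4, 52.7, 95.5 and 80.2 CPM in the spinal cord (log2 fold change -1.19, SE 0.18, adjusted p = 0.000268). Endothelial and mural genes had 4 of 22 higher in the midbrain and 2 in the cord (median 0.05). Ependymal genes had 2 of 16 and 5 (median -0.65). The 5 became 8 without midbrain library 2 or with limma-voom and 3 without spinal cord library 1, 3 or 4, and the 2 became 0 without midbrain library 4 or spinal cord library 2 and 1 without spinal cord library 4. Skeletal muscle genes had 13 of 15 higher in the cord and 1 in the midbrain, Des, which vessels also express and which lost its call without midbrain library 1 or 2 or spinal cord library 1 or 3 (median -2.47). Ckm, muscle creatine kinase, was read at 0.130, 0.0608, 0 and 0.0628 CPM in the midbrain and 3.34, 4.01, 3.20 and 9.11 CPM in the spinal cord (log2 fold change -6.12, SE 0.59, adjusted p = 8.32e-06), with spinal cord library 4 the highest. Red blood cell genes had 6 of 9 higher in the cord and 1 in the midbrain (median -1.17). Hba-a1, alpha-globin, was read at 128, 98.4, 97.8 and 162 CPM in the midbrain and 574, 256, 274 and 172 CPM in the spinal cord (log2 fold change -1.39, SE 0.30, adjusted p = 0.00309), with spinal cord library 1 the highest. The log2 fold changes of the 13 mitochondrially encoded protein genes lay between -0.43 and 0.34, under the fold threshold (median 0.20), with 5 higher in the midbrain and 1 in the cord at an unadjusted p below 0.05. Among abundant genes on no list, Cpe, which processes peptide hormones, was read at 1769.95, 1991, 1815 and 1820.2 CPM in the midbrain and 1012, 987, 944 and 919 CPM in the spinal cord (log2 fold change 0.94, SE 0.062, adjusted p = 4.31e-07).

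**Figure D5:**
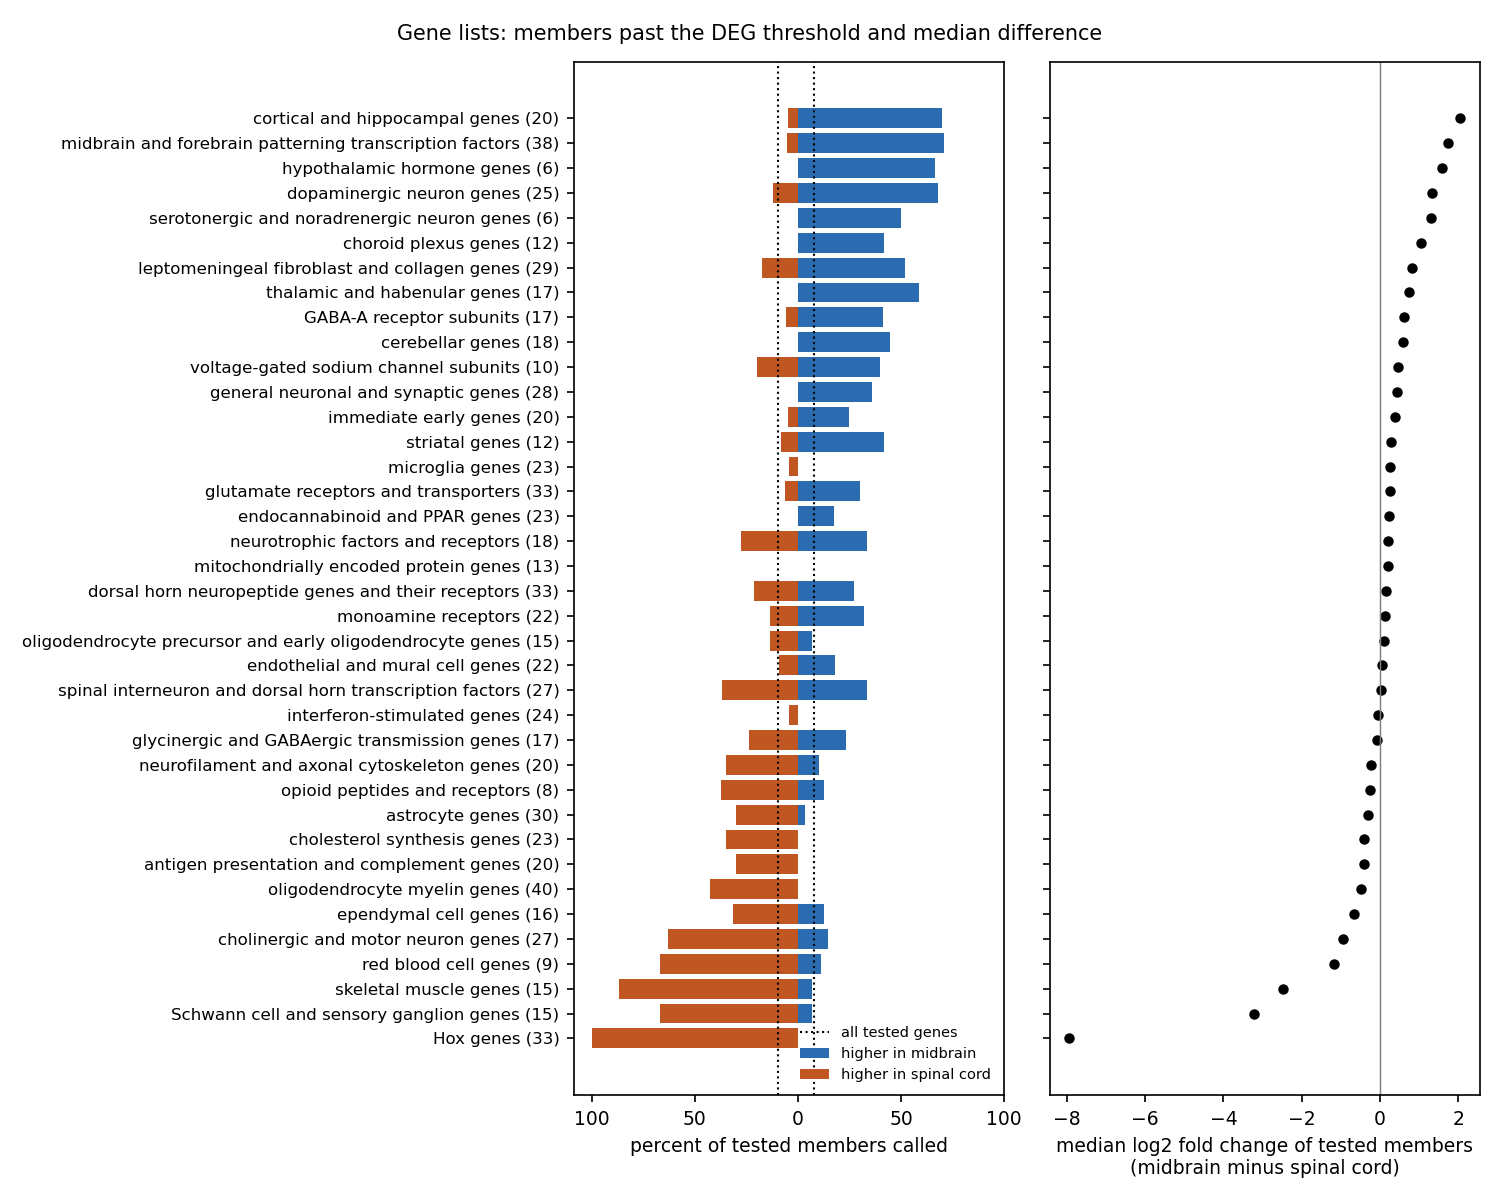
Left, percent of the tested members of the gene lists called higher in the Con midbrain (blue) and in the Con spinal cord (orange). Of the 39 lists, the pituitary list, with 1 tested member, is not drawn. Dotted lines mark the shares over all tested genes (7.74% and 9.68%), and the number tested is in brackets. The row labelled GABA-A receptor subunits also holds the GABA-B receptor genes Gabbr1 and Gabbr2. Right, the median log2 fold change of the tested members, with genes at 3 or fewer counts in a tissue set to their counted ratio or bound; the Hox genes, which were tested because of their spinal cord counts, lie lowest at -7.94.

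The same tissue contrast was read in the 4 MPTP groups, whose libraries the Con comparison did not use. With the same test and threshold, 2403 genes differed between the tissues in the MPTP-Veh group (15.1% of tested genes), against 3313 with SUEHP (MPTP-SU, 20.7%), 3073 with SUEHP and SR141716A (MPTP-SU+S, 19.3%) and 3115 with SUEHP and T0070907 (MPTP-SU+T, 19.5%). In the same order, of the Con DEGs tested there, 1447 of 2686 (53.9%), 1897 of 2696 (70.4%), 1852 of 2693 (68.8%) and 1863 of 2692 (69.2%) were called in the same direction, and 3, 24, 11 and 4 in the opposite direction. MPTP-Veh held a midbrain library, replicate 4, that stood apart, and without it 3306 genes (20.4%) and 1927 of 2726 Con DEGs (70.7%) were called. Slc6a3 had tissue differences of 8.92, 10.34, 10.23 and 9.39 on the log2 scale in these groups, again in that order, against 9.18 in Con. For Th the values were 4.42, 3.84, 4.39 and 4.35, against 3.73 in Con. Nefm gave -1.16, -2.77, -2.38 and -2.53, against -2.36. A test of the difference itself, the term for tissue by group over all 40 libraries at an adjusted p below 0.05, was passed by 791 genes for MPTP-Veh against Con (4.95%), 64 for MPTP-SU (0.4%), 86 for MPTP-SU+S (0.538%) and 87 for MPTP-SU+T (0.544%). Without that MPTP-Veh midbrain library, whose spread enters the fit of all groups, the numbers were 307 (1.92%), 766 (4.79%), 454 (2.84%) and 645 (4.03%). These 4 tests share the 8 Con libraries. Th and Slc6a3 passed this term in none of the 4 groups, with or without that library. Without it, the Th terms in the same order were 0.30, 0.12, 0.67 and 0.63 on the log2 scale (adjusted p = 0.841, 0.936, 0.585 and 0.574). Nefm passed for MPTP-Veh alone, and not without that library. The MPTP-Veh tissue differences printed above for these genes include it.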

How the data were processed

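The authors used fastp for trimming, STAR for alignment and Salmon for quantification, and their processing notes also name GATK and GRCm39, without versions. They deposited gene tables of estimated counts, which need not be whole, for 4 libraries per tissue in 5 groups. The labels name RNAiso Plus and the study's methods an Easy-Spin kit for extraction, and libraries were made with CORALL RNA-Seq V2. Splitting of reads between near-identical genes, as in the alpha-globin pair, depends on Salmon's estimate. Counts were rounded to whole numbers, and genes were kept by filterByExpr (minimum count 10, total 15). Library sizes were scaled by TMM, and 8 Con libraries were fitted with edgeR 4.0.16 (R 4.3.3), by the quasi-likelihood test. The fit was run on simulated data in which a small set of genes with high counts was changed. That run does not cover genes with few or no counts, or a contrast in which many genes differ. DESeq2 1.42.0, limma 3.58.1, other scalings, filters, a replicate block and leaving out each library were alternatives. Intervals cover counting error only. No column of another series was used.

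Members, gene lists and tests were chosen with earlier results of these data known. Genes named were, among DEGs without overlap, the 12 with the largest fold change per direction at 10 CPM or more, the 6 with the largest CPM difference, the study's stained or targeted genes, and from each of 39 lists the 4 smallest p-values, the 4 highest levels and any member going against its list; not all are printed, and results for some genes are not reported here. All Hox genes could also be named. En1, Pou4f1, Lbx1, Pax2, Ddc, Chat, Slc18a3, Slc5a7, Calca, Calcb, Uts2, Aqp4 and Gm26917 were named after their values were seen.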

Additional observations from a re-analysis of the deposited data

Results flagged for a closer look

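Among 242 groups of 4 libraries, 2 for each of 121 named genes, 14 held a library far from the other 3, where chance gives about 1 in 20. Spinal cord library 1 was such a library for Hoxd10 (61.5 CPM), Gad1 (133.5 CPM), Nrgn (27.0), Tacr1 (24.9), Adra1a (30.1), Htr2a (3.54) and Gfap (935 CPM). Spinal cord library 2 was for Gad2 (137 CPM), Map1b (2335) and Egr2 (2.16 CPM), and spinal cord library 4 for Ckm (9.11 CPM). In the midbrain it was library 1 for Lbx1 (0.777 CPM), library 2 for Hoxa7 (0.0608 CPM, 1 count) and library 4 for Hoxb3 (1.82 CPM).

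For 16 of the 121 named genes the tissue difference in an MPTP group departed from that in Con by the term for tissue by group in edgeR, adjusted over all genes. Over all tested genes, 4.95% passed for MPTP-Veh, 0.4% for MPTP-SU, 0.538% for MPTP-SU+S and 0.544% for MPTP-SU+T. Without MPTP-Veh midbrain library 4 the shares were 1.92%, 4.79%, 2.84% and 4.03%, in the same order. The named genes were largely chosen by their tissue differences, so their counts are no result about them. In the values that follow, a positive number is a shift toward the midbrain in the MPTP group, relative to Con. For a gene higher in the Con spinal cord, such as Nefm or S100b, it therefore means a smaller or reversed tissue difference. A negative number means the same for a gene higher in the Con midbrain. All comparisons share the Con libraries. For MPTP-Veh the departures on the log2 scale were 1.60 for Sncg, 1.22 for Glra1, 1.18 for Nefm, 0.58 for Nefh, 0.62 for Gap43, 0.63 for Scn4b, 1.14 for S100b, 1.78 for Nes and 2.50 for Hba-a1. They were -2.68 for Slc17a7, -1.21 for Camk2a, -0.60 for Scn3b, -0.72 for Slc1a3, -0.46 for Sall1 and -1.37 for Igf2. Without MPTP-Veh midbrain library 4, only Camk2a (-1.07, adjusted p = 0.03) and Slc1a3 (-0.52, adjusted p = 0.0382) of these 15 still passed. For MPTP-SU+S they were -1.48 for Camk2a and -1.83 for Igf2, and for MPTP-SU+T -1.28 for Camk2a, -1.79 for Igf2 and 1.18 for Foxp2. Without that library these 5 still passed, at -1.46, -1.82, -1.26, -1.78 and 1.19, and further named genes passed. These were 1 gene for MPTP-Veh (Hoxb5) and 12 for MPTP-SU, where none had passed before (Hoxb5, Foxp2, Slc17a6, Camk2a, Nrgn, Cplx2, Rbfox3, Sst, Cnrip1, Scn3b, C3 and Igf2). They were 5 for MPTP-SU+S (Nrgn, Rbfox3, Cnrip1, Scn3b and C3) and 9 for MPTP-SU+T (Hoxb5, Slc17a6, Nrgn, Cplx2, Rbfox3, Gfap, C3, Gfra1 and Ptgds).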

How the results depend on the processing

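In every alternative run, none of the 2785 DEGs was called in the opposite direction. The 2785 DEGs were 2698 with DESeq2, 2736 with limma-voom, 2785 with RLE size factors, 2859 in a model of all 40 libraries, 3313 with no filter on low counts, 2232 with at least 10 counts in every library, and 2695 to 2852 when each library was left out in turn (1182 to 1287 higher in the midbrain and 1490 to 1577 in the cord). On adjusted p alone they were 6434, of which 3077 were higher in the midbrain and 3357 in the cord, and above 4-fold they were 416, of which 179 and 237. Members of all lists called above 4-fold numbered 141. With library size alone, 51.7% of 2734 DEGs were higher in the midbrain, against 44.4%, and the median of all genes moved by 0.058 on the log2 scale. With the replicate number as a block, 2683 DEGs were called (1198 and 1485); same-numbered midbrain and spinal cord libraries deviated with correlations of -0.036, -0.023, -0.011 and -0.041, each under 0.1, so the numbers were not taken to pair the libraries. Without division by transcript length, number 8 held 30.2% of the Hox level in place of 26.6%. In limma-voom the log2 fold change of Slc6a5 was -5.98, of Slc17a7 7.93, of Pax2 -5.89, of Lbx1 -6.68, of Slc18a3 -5.62, of Hoxb5 -6.72 and of Hoxb3 -6.17. Without MPTP-Veh midbrain library 4, chosen after seeing the data, the genes whose tissue difference departed from Con numbered 307 for MPTP-Veh in place of 791, 766 for MPTP-SU in place of 64, 454 for MPTP-SU+S in place of 86 and 645 for MPTP-SU+T in place of 87. Of genes that did not pass the test, Pou4f1 ranged from -0.70 to 0.18 with each library left out in turn, Pparg from -0.29 to 0.12 and Fos from 0.049 to 0.34, turning sign for Pou4f1 without midbrain library 2 and for Pparg without midbrain library 3 (0.12), midbrain library 4 (0.068) or spinal cord library 2 (0.10). In an alternative chosen after seeing the data, without midbrain library 3 and spinal cord library 2 together, Pparg turned to 0.29 and Fos to -0.018. The cause of these moves was not tested. At 14642808 to 16572206 counts a library, a gene with no count in 4 libraries is known only to lie under 3 counts in them.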
